A study of Mus musculus with 8 samples.

Results

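The transcripts described here are 10 genes through which neutrophils are called into injured tissue, selected by name from the 16091 genes of the deposited table. They comprise 4 ELR chemokine genes (Cxcl1, Cxcl2, Cxcl3 and Cxcl5) and 6 receptor genes (Cxcr2, Fpr1, Fpr2, C5ar1, Ptafr and Ltb4r1), and all of them were found and passed the filter on low values. They were measured by bulk RNA sequencing in mouse corneas of 2 genotypes, Opn5-/- (called Opn5-null) and wild-type. Opn5 encodes opsin 5, a photopigment for violet and ultraviolet light. There were 4 libraries per genotype, lettered A to D, and every cornea had its epithelium debrided 12 hours before it was collected. All titles hold the word Light, which no label explains. The labels give no strain, age, sex, design of the null allele or pooling of corneas. Transcripts of the targeted gene were not analysed here, so the genotypes rest on the labels.

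ELR chemokines are small secreted proteins with a glutamate-leucine-arginine motif ahead of their first cysteine, which lets them bind the receptor Cxcr2 on neutrophils. Formyl peptide receptors, the C5a receptor, the platelet-activating factor receptor and the leukotriene B4 receptor are likewise G protein-coupled receptors of myeloid cells, and they sense bacterial or mitochondrial peptides, complement fragments and lipids. In the injured cornea, epithelial cells and keratocytes are known sources of chemokines, and neutrophils enter from vessels at the limbus and from the tear film.

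The 4 ELR chemokine genes lie together on chromosome 5, all on the plus strand. In GENCODE M21 (GRCm38) the interval from the start of Cxcl5 to the end of Cxcl2, chr5:90759360-90905938, spans 147 kb and also holds the chemokine genes Ppbp, Pf4 and Cxcl15. The receptor genes lie apart from them in the same annotation, with Cxcr2 at chr1:74153989-74161246, Ptafr at chr4:132564067-132582683, C5ar1 at chr7:16246743-16259540 and Ltb4r1 at chr14:55765962-55768494. Fpr1 (chr17:17876471-17883940) and Fpr2 (chr17:17887824-17893952) are neighbours on opposite strands. RefSeq promoter windows (GRCm38.p6) were matched for 9 of the 10 genes, all but Cxcl5. The sequences below are the 120 bases before the RefSeq start of Cxcl1 (chr5:90891125-90891244), Cxcl2 (chr5:90903779-90903898) and Cxcl3 (chr5:90785981-90786100), plus strand, 5′ to 3′. They are shown because they carry the same pair of short elements. Cxcl5, without a window, and 5 receptor genes rose as well as these 3 genes. Any part of the elements in the rise was not tested. Capitals mark GGGAATTTCCC, which is the longest run of bases shared by the 3 windows over 250 bases before the start and is of the kind bound by NF-kB, and the TATA-like ATAAAAG.
Cxcl1: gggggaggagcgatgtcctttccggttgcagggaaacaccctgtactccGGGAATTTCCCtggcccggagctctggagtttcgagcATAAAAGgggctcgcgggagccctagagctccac
Cxcl2: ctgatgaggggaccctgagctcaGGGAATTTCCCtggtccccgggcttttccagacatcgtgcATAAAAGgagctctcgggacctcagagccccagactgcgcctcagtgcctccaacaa
Cxcl3: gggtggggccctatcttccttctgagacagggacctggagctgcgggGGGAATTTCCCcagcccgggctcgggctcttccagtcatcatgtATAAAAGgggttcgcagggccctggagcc
GGGAATTTCCC began at position -71 in Cxcl1, -97 in Cxcl2 and -73 in Cxcl3, with -1 the last base before the RefSeq start. GENCODE M21 starts Cxcl2 at chr5:90903871 and Cxcl1 at chr5:90891241, both inside the printed windows. The positions therefore depend on the start used. Searched on both strands over the same 250 bases, it was present in 0.0426% of 32851 RefSeq windows, and in none of the 6 receptor windows. Since it was chosen from these 3 windows, its presence in them is a description. ATAAAAG, searched on the forward strand, was present in 3.01% of the windows, in these 3 chemokine windows and in that of Fpr2. TGANTCA and TTGCNNAA, patterns of the AP-1 and C/EBP families, were found on neither strand of the 9 windows, against 6.75% and 9.56% of all windows. A match describes letters and does not show that a factor was bound.

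Over the 8 libraries, recovered reads totalled 21111715 to 28219234, and each of the 10 genes had 181 to 91176 reads in any library. Markers of corneal tissue were abundant, with the epithelial keratin gene Krt12 averaging 53816 ± 36077 normalized counts (gene counts over a size factor per library) in the Opn5-null group and 130431 ± 41966 in the wild-type group, and the keratocyte gene Kera at 7508 ± 2289 and 4600 ± 1012 (SD, n = 4). Opn5-null D stood apart by its epithelial markers, whose mean log2 level lay 2.38 below the wild-type mean, against 0.31 to 0.62 below it in the other Opn5-null libraries. Whether the samples of a genotype are separate animals is not stated in the labels, and the p-values below therefore reflect sample-to-sample spread only, some or all of which may be technical.

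The genotypes were compared after corneal wounding only. Without unwounded corneas, a difference in the response to the wound cannot be told apart from a difference present before it. With no strain in the labels, loss of Opn5 and genetic background cannot be told apart either. By limma on log2(value + 1), with Benjamini-Hochberg adjustment over all 16085 genes tested, 9 of the 10 genes rose in Opn5-null corneas and none fell, at an adjusted p below 0.05. Among all genes tested, 18.8% were higher and 13.5% were lower. All 4 chemokine genes and 5 of the 6 receptor genes rose, by 6.70-fold to 29.0-fold as ratios of mean normalized counts. The leukotriene receptor gene Ltb4r1 did not pass the test. For the 9 genes that rose, every Opn5-null library lay above every wild-type library, an arrangement seen in that direction in 20.3% of all genes tested. The median log2 fold change of the 10 genes was 3.28, against -0.02 for all genes tested. Higher genes were 58.2% of all calls, but 40.3% under quantile normalization and 40.8% under upper-quartile scaling, which put the median of all genes at -0.13. Under both, 9 of the 10 genes were higher and Ltb4r1 was not called.

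**Figure D1:**
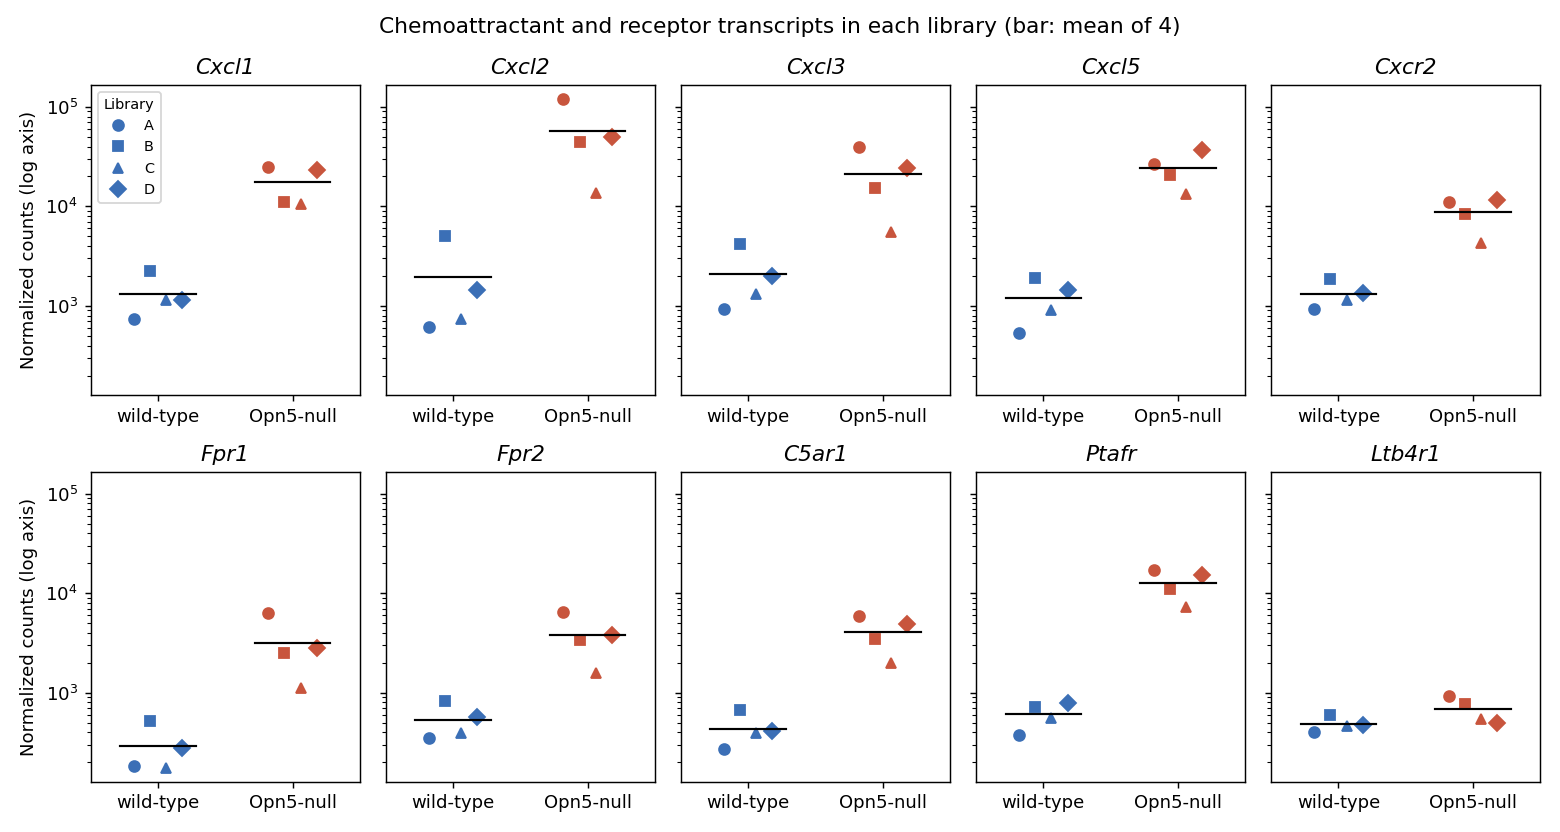
Normalized counts (log axis) of the 10 transcripts in 4 wild-type (blue) and 4 Opn5-null (red) libraries, with symbols for library letters and bars for means. In 9 panels the genotypes do not overlap, and in that of Ltb4r1 the Opn5-null libraries, at 500 to 936, overlap the wild-type libraries, at 405 to 591.

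Cxcl1, the chemokine also known as KC, measured 25162, 11117, 10667 and 23235 normalized counts in Opn5-null libraries A, B, C and D. Its wild-type values were 744, 2267, 1159 and 1139 in A, B, C and D. The genotypes were far apart, and the lowest Opn5-null library was 4.71 times the highest wild-type library. Means were 17545 ± 7725 and 1327 ± 655 (SD, n = 4), a ratio of 13.2, with a log2 fold change of 3.73 ± 0.40 (SE, limma adjusted p = 0.000415).

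Cxcl2, or MIP-2, made by macrophages, neutrophils and stromal cells, had the largest fold change of the 10 genes. It measured 119990, 44054, 13634 and 49590 normalized counts in Opn5-null libraries A, B, C and D, and 607, 5032, 747 and 1453 in wild-type A, B, C and D. No overlap was seen, although values within a genotype differed by 8.80-fold and 8.28-fold from the lowest to the highest library. Means were 56817 ± 44984 and 1960 ± 2081 (SD, n = 4), a ratio of 29.0, and the log2 fold change was 5.01 ± 0.80 (SE, limma adjusted p = 0.00236). This ratio leaned on single libraries: it was 18.2 without Opn5-null A and 60.7 without wild-type B.

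Cxcl3, a close relative of Cxcl2, measured 39582, 15370, 5587 and 24216 normalized counts in the Opn5-null libraries, in the order A to D. In wild-type A to D it measured 936, 4198, 1322 and 2001. The gap between genotypes was the narrowest among the chemokines, since Opn5-null C was only 1.33 times wild-type B. Its mean was 10.0-fold higher in Opn5-null corneas, and the log2 fold change was 3.24 ± 0.64 (SE, limma adjusted p = 0.00659). The transcripts of Cxcl2 and Cxcl3 are 90.0% identical over an aligned stretch of 561 bases, and reads may be divided between them, so their separate levels are uncertain.

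Cxcl5, known in the mouse as LIX and made largely by epithelial cells and platelets, measured 26544, 20454, 13364 and 36952 normalized counts in Opn5-null libraries A, B, C and D. In wild-type corneas it measured 531, 1897, 918 and 1453, again from A to D. Every Opn5-null library was at least 7.05 times the highest wild-type one, the widest gap of the 4 chemokines. The log2 fold change was 4.40 ± 0.43 (SE, limma adjusted p = 0.000293), and the highest library was Opn5-null D, in which epithelial markers were lowest.

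The pool of the 4 chemokines was compared per kilobase of the principal coding transcript, since raw counts depend on transcript length. Their sum ranged from 37471 to 190412 normalized counts per kilobase across the Opn5-null libraries. Across the wild-type libraries it ranged from 2587 to 12252. Ppbp, which also encodes an ELR chemokine for Cxcr2, was left out of this pool. In wild-type corneas Ppbp averaged 11475 ± 3255 per kilobase, above the pool's mean of 6002 ± 4323 (SD, n = 4). In Opn5-null corneas Ppbp averaged 16926 ± 6099, below the pool's mean of 105945 ± 64889. The shares below therefore hold for the 4 genes only, and shares of a pool with Ppbp were not determined. Cxcl3 held 33.7% to 36.5% of the pool in the wild-type libraries but 14.7% to 20.5% in the Opn5-null libraries, with no overlap. With merged exons as the length, its shares were 20.4% to 21.5% and 7.59% to 11.7%, again without overlap. Cxcl2 held 17.8% to 37.0% of the wild-type pool and 32.8% to 56.8% of the Opn5-null pool, which overlapped, as did the shares of Cxcl1 and Cxcl5. Wild-type B, with the largest pool of its genotype, also had the largest share of Cxcl2 there. Opn5-null A, with the largest pool of all, had the largest share of Cxcl2 of all, 56.8%. The other libraries did not keep this order. Opn5-null D had a larger pool than Opn5-null B but a smaller share of Cxcl2, 38.4% against 49.97%. Wild-type C likewise had a larger pool than wild-type A but a smaller share, 17.8% against 21.2%. Cxcl2 is itself part of the pool, so its share and the size of the pool are not independent. These shares are descriptions without a test, and they share the read uncertainty between Cxcl2 and Cxcl3.

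**Figure D2:**
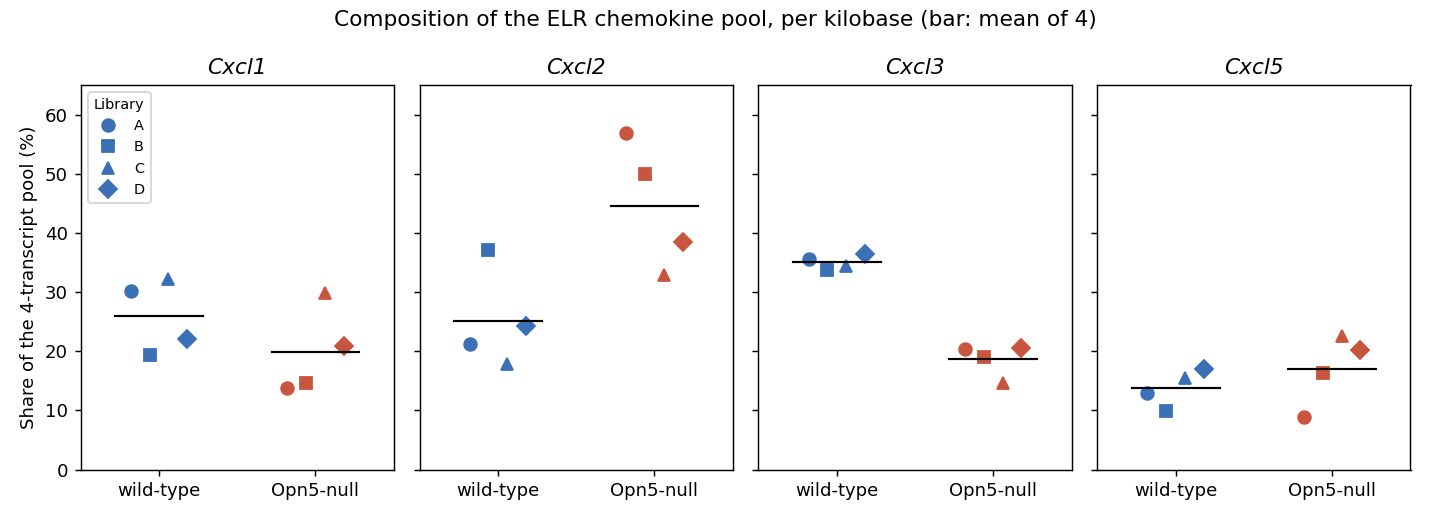
Share (%) of each of the 4 ELR chemokines described here in their summed level (Ppbp left out), in normalized counts per kilobase. Points are wild-type (blue) and Opn5-null (red) libraries, with bars for means. Shares of Cxcl3 do not overlap between genotypes, at 33.7% to 36.5% against 14.7% to 20.5%, while those of the other 3 do.

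Cxcr2, the neutrophil receptor for these chemokines, measured 11019, 8482, 4273 and 11612 normalized counts in Opn5-null libraries A, B, C and D. In wild-type A, B, C and D it measured 924, 1869, 1153 and 1336. Opn5-null C, the lowest of its genotype, was still 2.29 times wild-type B. The mean ratio of 6.70 was the smallest among the 9 genes that rose, with a log2 fold change of 2.69 ± 0.34 (SE, limma adjusted p = 0.000811).

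Fpr1, the high-affinity formyl peptide receptor, measured 6322, 2500, 1116 and 2809 normalized counts in the Opn5-null libraries A to D. It was at 185, 524, 177 and 277 in the wild-type libraries A to D. The groups did not overlap, and Opn5-null A stood well above the other 3 Opn5-null libraries. Its log2 fold change was 3.33 ± 0.53 (SE, limma adjusted p = 0.0024).

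Fpr2, which senses formyl peptides, serum amyloid A and the pro-resolving protein annexin A1, lies beside Fpr1 on chromosome 17. It measured 6397, 3364, 1563 and 3762 normalized counts in Opn5-null A to D and 349, 829, 391 and 566 in wild-type A to D. Opn5-null A was again the highest library and wild-type B the highest of its genotype, with no overlap of the groups. The log2 fold change was 2.73 ± 0.43 (SE, limma adjusted p = 0.00225). In GENCODE M21 the gene overlaps Fpr3 on the same strand, and their transcripts are 87.4% identical over 1131 aligned bases. The predicted gene Gm5966 is 95.8% identical to Fpr2 over 1037 bases. Neither of those was analysed here, and the level of Fpr2 is uncertain to that extent.

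C5ar1, the receptor for the complement fragment C5a, measured 5912, 3455, 2008 and 4866 normalized counts in Opn5-null libraries A, B, C and D. Wild-type values were 269, 668, 394 and 412 from A to D. The lowest Opn5-null library was 3.01 times the highest wild-type library. Means of 4060 ± 1699 and 436 ± 167 (SD, n = 4) gave a ratio of 9.32 and a log2 fold change of 3.18 ± 0.37 (SE, limma adjusted p = 0.000574).

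Ptafr, the receptor for platelet-activating factor, had the lowest adjusted p of the 10 genes. It measured 16967, 10957, 7203 and 15249 normalized counts in Opn5-null libraries A, B, C and D, and 373, 725, 553 and 788 in wild-type A, B, C and D. The separation was the widest of all 10 genes, with Opn5-null C at 9.15 times wild-type D. Means were 12594 ± 4394 and 610 ± 186 (SD, n = 4), a ratio of 20.7, and the log2 fold change was 4.35 ± 0.32 (SE, limma adjusted p = 7.2e-05).

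Ltb4r1, the high-affinity leukotriene B4 receptor, measured 936, 774, 540 and 500 normalized counts in Opn5-null libraries A, B, C and D. In wild-type corneas the values were 405, 591, 467 and 474 from A to D. The groups overlapped, because wild-type B lay above Opn5-null C and D. The log2 fold change was 0.47 ± 0.21 (SE, limma adjusted p = 0.12), with a 95% interval from -0.01 to 0.95. Without Opn5-null D it was 0.61 and passed the threshold (limma adjusted p = 0.0436).

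**Figure D3:**
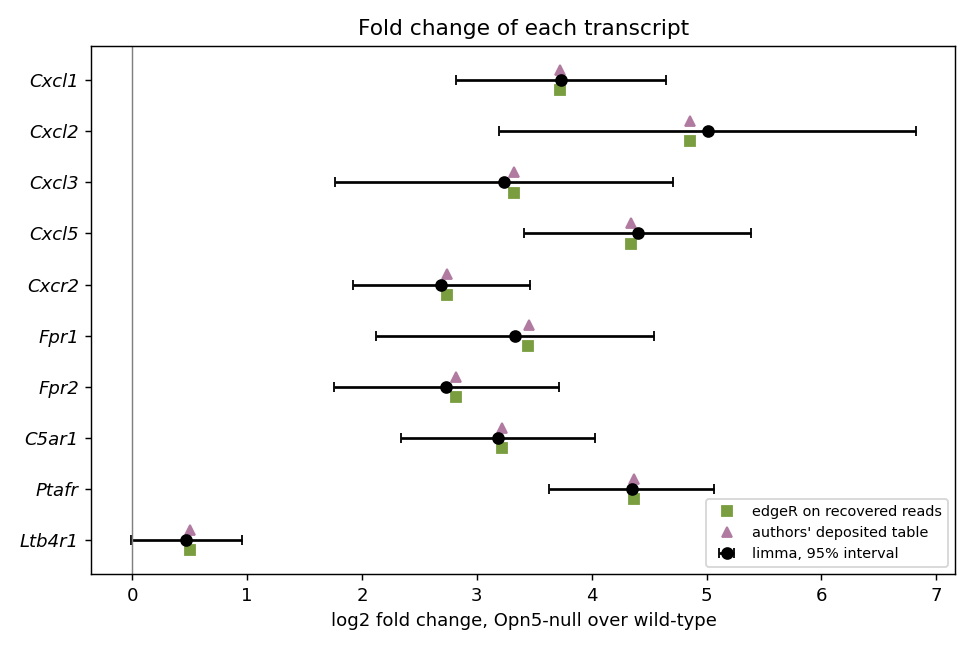
Log2 fold change of each transcript in Opn5-null over wild-type corneas (x axis) by limma with its 95% interval, by edgeR on recovered reads and in the authors' deposited table. The interval of Ltb4r1, from -0.01 to 0.95, lies below those of the other 9 genes, the lowest of which starts at 1.75 (Fpr2).

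In the authors' deposited table the log2 fold changes of the 10 genes ran from 0.50 for Ltb4r1 to 4.86 for Cxcl2, and Ltb4r1 alone had an adjusted p above 0.05, at 0.0759. edgeR's quasi-likelihood test on recovered reads gave Ltb4r1 an adjusted p of 0.105 and called the other 9 genes higher.

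Per kilobase of the principal coding transcript, the chemokines had the highest means of the 10 transcripts in both genotypes. In wild-type corneas the mean levels, in normalized counts per kilobase, were 2081 ± 1434 for Cxcl3, 1767 ± 1877 for Cxcl2, 1393 ± 687 for Cxcl1 and 762 ± 380 for Cxcl5 (SD, n = 4). The receptors followed from Fpr2 at 471 ± 193 and Cxcr2 at 434 ± 132 down to C5ar1 at 172 ± 65.9 and Ptafr at 168 ± 51.2, with the ranges of all 9 pairs of neighbours in the order overlapping. In Opn5-null corneas Cxcl2 came first at 51233 ± 40563, ahead of Cxcl3 at 20855 ± 14204, Cxcl1 at 18411 ± 8106 and Cxcl5 at 15447 ± 6344. Ptafr, last in wild-type corneas, was the most abundant receptor there by mean, at 3463 ± 1208 normalized counts per kilobase, but its range overlapped that of Fpr2 at 3329 ± 1761. Ltb4r1 was last at 493 ± 147, after standing seventh in wild-type corneas at 347 ± 55.6. In Opn5-null corneas the ranges of 7 of the 9 neighbouring pairs overlapped, and the exceptions were the steps from Cxcl5 to Ptafr and from C5ar1 to Ltb4r1. With merged exons as the length, the order of the chemokines changed (Cxcl3 became the fourth in both genotypes), so their order among themselves depends on the transcript length assumed.

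Within each genotype the transcripts varied together over the libraries. Opn5-null C was the lowest Opn5-null library for 9 of the 10 genes, the exception being Ltb4r1, and Opn5-null A was the highest for 8. Wild-type B was the highest wild-type library for 9 genes, all but Ptafr, and wild-type A the lowest for 9, all but Fpr1. After each genotype's mean was subtracted, Pearson's r over the 8 libraries had a median of 0.90 over the 36 pairs of the 9 genes that rose, with a range of 0.73 to 0.99. Ltb4r1 correlated less closely with them, with r from 0.35 to 0.76. The points of each such correlation share library, depth and tissue makeup.

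The genes whose deviations within genotypes most resembled the mean of the chemokines, among 12422 ranked, were Trem1, Cd300c2, Clec4d, Samsn1 and Cd300ld, with r of 0.99 or above over the 8 libraries (0.995 for Trem1, an activating receptor of neutrophils and monocytes). Those nearest to the mean of the receptors were Csf2rb2, Lilrb4a, Lcp2, Gsap and Slc15a3, with r from 0.993 to 0.998. Csf2rb2 encodes a receptor chain of the interleukin 3 family, and Lcp2 encodes the adaptor SLP-76 of blood cells. Trem1 and Clec4d are also in the list of neutrophil markers used below.

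Most neutrophil markers, but not all, rose with these transcripts. Of 21 markers tested, 16 rose and 1 fell, against 18.8% and 13.5% of all genes tested, with a median log2 fold change of 2.15. Their summed level ranged from 130911 to 450728 normalized counts across Opn5-null libraries and from 45518 to 81273 across wild-type libraries. None of the 21 was at 0 in any library, and Mpo and Elane, genes of immature neutrophils, were not analysed here. The most abundant were Slfn4, which is also induced by interferon, with 90482 ± 42710 against 4678 ± 1739 normalized counts (SD, n = 4), and Lcn2, which the epithelium also makes, with 37026 ± 15525 against 24952 ± 6083. Lcn2 did not pass, with a log2 fold change of 0.51 (limma adjusted p = 0.228). Mmp8, Ngp and Stfa2 did not pass either, at -0.75, 1.55 and 0.45 on the log2 scale. Ltf rose by 0.89. In bulk tissue, a difference in the number of neutrophils and a difference in RNA per cell cannot be told apart. Levels were also taken relative to the markers' mean log2 level in the same library. The wild-type mean of the difference was set to 0. On this scale, 7 of the 10 genes were higher in every Opn5-null than in every wild-type library. The share of all genes with that arrangement after this subtraction was not determined, so the count is a description only. Ptafr stood 1.86 to 2.14 above the mean of the markers in Opn5-null libraries, against -0.43 to 0.33 in wild-type libraries. The markers' own log2 fold changes ran from -1.10 (Padi4) to 5.48 (Mrgpra2a), and that of Ptafr, 4.35, lay within this range. Cxcr2, at 0.12 to 0.63 against -0.18 to 0.26, and Cxcl3, at 0.13 to 1.47 against -0.52 to 0.49, overlapped. Ltb4r1 stood at -2.50 to -1.34 relative to the markers, against -0.43 to 0.37. The part of neutrophil number in these results was not tested.

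**Figure D4:**
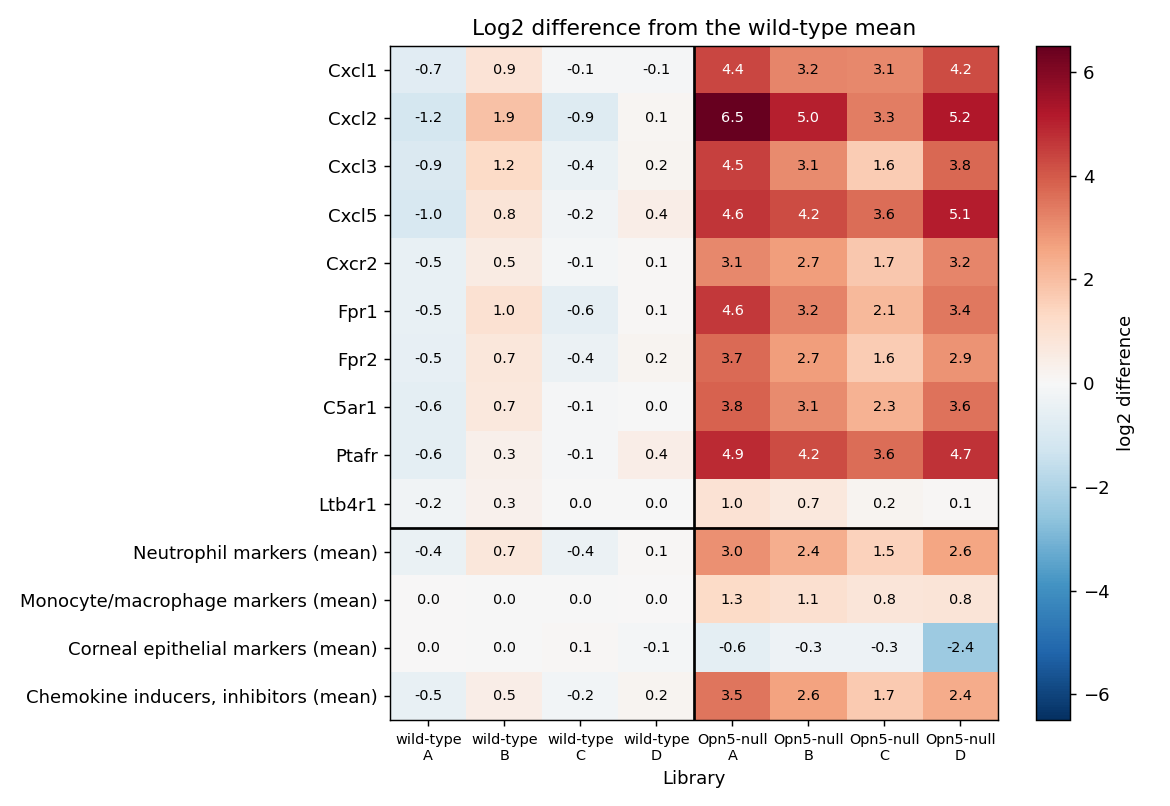
Log2 difference of each library (columns) from the wild-type mean for the 10 transcripts and for the means of 4 gene lists (rows below the line). Opn5-null C is the palest Opn5-null column for most transcripts and for the neutrophil markers, while epithelial markers are lowest in Opn5-null D, at -2.38.

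Markers of other cells that carry these receptors or make the ligands are given beside them. Their counts are to be read against 18.8% higher and 13.5% lower among all genes tested. Of 18 markers of monocytes and macrophages, 10 rose and 2 fell, with a median log2 fold change of 0.89 and summed levels of 29590 to 47893 against 9200 to 11762 normalized counts. Lyz2, the lysozyme gene of myeloid cells, was at 22948 ± 4849 against 4749 ± 1075, and Ccr2, the monocyte chemokine receptor gene, at 3196 ± 407 against 593 ± 129 (SD, n = 4). The markers that fell were Cd163 and Folr2, of resident macrophages, with log2 fold changes of -1.85 and -1.06 (limma adjusted p = 0.00559 and 0.046). C1qa, C1qb, C1qc, Cx3cr1, Mertk and Lyve1 did not pass, with log2 fold changes from -0.52 to 0.12. Of 15 corneal epithelial markers 1 fell (Krt15) and none rose, with summed levels of 172881 to 690492 against 838900 to 1001530 normalized counts. Their most abundant members, the keratin genes Krt5 and Krt6a, had log2 fold changes of -1.07 and -0.93, with limma adjusted p = 0.0853 and 0.0989. Of 12 keratocyte and fibroblast markers, 5 rose and 1 fell, while Dcn and Col1a2, the most abundant, had log2 fold changes of 0.26 and 0.37 and did not pass. Of 9 vessel endothelial markers, 3 rose and none fell, with Pecam1 at 0.79 and Kdr at -0.05 on the log2 scale. Of 5 mast cell, basophil and eosinophil markers tested, Kit fell by 0.94 on the log2 scale and none rose, with Mcpt4 at 0.40. The part of these cell types in the results for the 10 genes was not tested.

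Other ligands and receptors of the same families rose in 6 of 9 cases and fell in none, against 18.8% and 13.5% of all genes. Their median log2 fold change was 1.11. C3ar1, the receptor for the complement fragment C3a, was 5.85-fold higher, with a log2 fold change of 2.53 ± 0.18 (SE, limma adjusted p = 5.91e-05). Cxcr4, the receptor that holds neutrophils in the marrow, was 12.8-fold higher, at 1821 ± 785 against 142 ± 44.5 normalized counts (SD, n = 4).

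The chemokine genes that lie between Cxcl5 and Cxcl3 on chromosome 5 had smaller fold changes than their neighbours. Ppbp, whose product is processed to a platelet-derived ELR chemokine for Cxcr2, measured 27076, 18963, 11400 and 15883 normalized counts in Opn5-null A to D and 11052, 15954, 8139 and 14564 in wild-type A to D. The genotypes overlapped, and the log2 fold change was 0.54 ± 0.29 (SE, limma adjusted p = 0.188), with a 95% interval from -0.13 to 1.21 that lies below the intervals of all 4 ELR chemokine genes described above. Per kilobase, Ppbp in wild-type corneas was at 11475 ± 3255, above the mean level of each of those 4 chemokines. Pf4, a platelet chemokine without the ELR motif, was at 120 ± 41.8 against 62.6 ± 9.21 normalized counts (SD, n = 4) and rose by 0.88 on the log2 scale (limma adjusted p = 0.0242).

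Genes that supply, trap or break down the ligands moved in both directions, with a median log2 fold change of 1.15. Of 17 tested, 9 were higher and 3 lower, against 18.8% and 13.5% of all genes tested. C3, the central complement component, was 4.75-fold higher, and Pla2g4a, the phospholipase that releases arachidonic acid, was 2.65-fold higher. Pafah1b3, a subunit of an enzyme that inactivates platelet-activating factor, fell by 0.51 on the log2 scale (limma adjusted p = 0.0165). Pla2g7, which encodes the secreted enzyme that inactivates the same lipid, was 4.96-fold higher (limma adjusted p = 0.000886), at 3486 ± 1359 against 703 ± 120 normalized counts (SD, n = 4). Pafah1b2, for another subunit, did not pass, at -0.08 on the log2 scale. Lpcat4, a lysophospholipid acyltransferase gene, fell by 0.88 (limma adjusted p = 0.0241).

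Of 21 genes that carry or end the receptors' signals, 17 rose and none fell, against 18.8% and 13.5% of all genes tested. The median log2 fold change of these genes was 1.63. Split by role after their values were seen, 11 of the 13 that carry the signal rose, as did 6 of the 8 that end it (regulators of G protein signalling, receptor kinases and an arrestin). Rgs2, of the second kind, was 7.10-fold higher. Dock2, a Rac activator of migrating leukocytes, was 6.57-fold higher, and Prex1, another Rac activator, was 3.17-fold higher, with log2 fold changes of 2.65 ± 0.25 and 1.63 ± 0.17 (SE, limma adjusted p = 0.000241 and 0.000335).

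Of 16 cytokine and NF-kB pathway genes known to induce or restrain the chemokines, 13 rose and none fell, against 18.8% and 13.5% of all genes. Their median log2 fold change was 2.97. The inhibitors Nfkbia, Tnfaip3 and Zfp36 made up 3 of the 16, of which 2 rose, and 11 of the other 13 rose. The cytokine gene Il1b was at 75330 ± 47017 against 3966 ± 2648 normalized counts (SD, n = 4), a 19.0-fold difference. Nfkbia, the inhibitor and target of NF-kB, was at 20155 ± 10236 against 1757 ± 352 normalized counts (SD, n = 4), an 11.5-fold difference. Tnfaip3, which encodes the feedback inhibitor A20, was 13.1-fold higher. Adhesion genes that let neutrophils roll and stop on endothelium rose in 11 of 14 cases and fell in none, with a median of 1.80, and the integrin genes Itgb2 and Itgal were 9.57-fold and 9.19-fold higher.

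**Figure D5:**
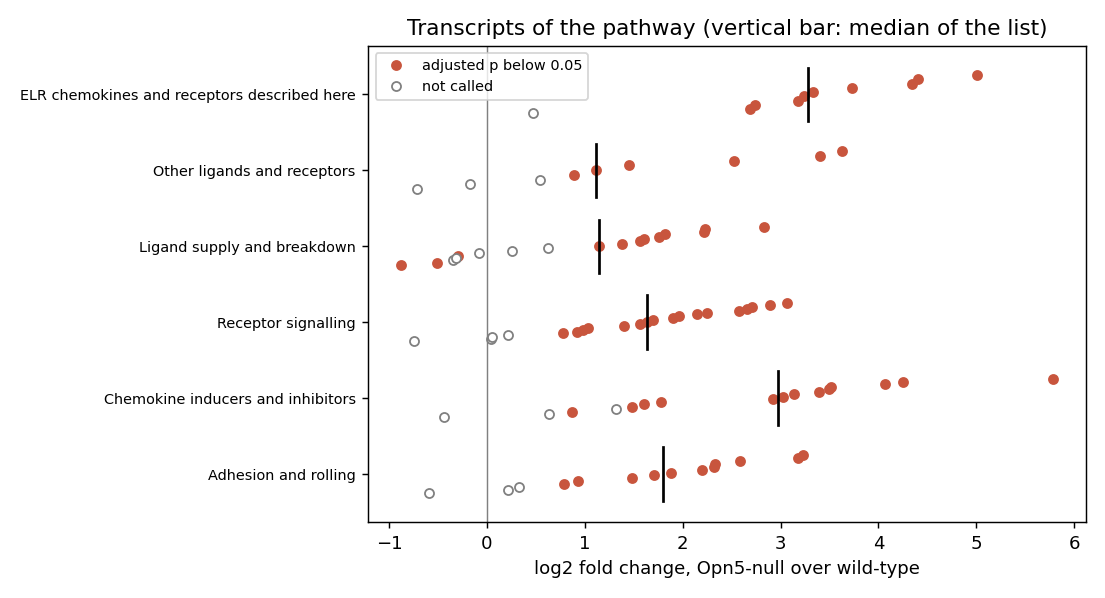
Log2 fold change in Opn5-null over wild-type corneas (x axis) for each gene of the 10 described here and of 5 pathway lists, with filled points for a limma adjusted p below 0.05 and vertical bars for medians. Medians range from 1.11 for other ligands and receptors to 3.28 for the 10 genes, against -0.02 for all genes tested.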

How the data were processed

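RNA of 8 mouse cornea samples was sequenced after depletion of ribosomal and globin RNA with a stranded kit, per the labels' protocols. RSEM 1.3.1 is named in the submitters' processing notes. The sources used here name no aligner, genome build, gene annotation or strand setting. The deposited signal values, 1 per gene and library, are gene counts over a size factor, as the values show: taken in units of a column's lowest value above 0, 100% of them came out whole within 0.001. Per the file headers, the table also holds log2 fold changes with their p-values from the authors' own test. The −log10 of the adjusted p, deposited in a further column, was not used.

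Values were tested with limma 3.58.1 (R 4.3.3, intensity trend, robust variance) on log2(value + 1), for 16085 genes that reached 1 in 4 or more libraries. Such a fold change understates that of low genes. The step was tested on simulated data, with the same dispersion for all genes and independent libraries. It therefore does not show how well errors were controlled in these data. Alternatives were a pseudocount of 0.1, no filter, 1 CPM in 4 libraries, quantile, upper-quartile and TMM scaling, a replicate block by letter, each library or both D libraries left out, a threshold of 0.01, and edgeR 4.0.16 and DESeq2 1.42.0 on recovered reads in place of limma. Lengths and positions are from GENCODE M21, joined by gene identifier, and transcripts were compared with BLAST+ 2.17.0. Where a symbol stood on more than 1 identifier, the more abundant was used.

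The 10 genes, the lists and the promoter patterns were chosen with earlier results of these data known. Named list genes were the called members with the lowest p, up to 2 per direction, and the 2 most abundant cell type markers. Krt12, Kera, Krt15, Mrgpra2a, Pla2g7, Pafah1b2, Rgs2, Il1b and Zfp36 were added after their values were seen. So were the further macrophage and neutrophil markers and the genes of the closing observations. For likeness, the 5 genes with the highest r and a higher group mean of 50 or more were named. The 10 genes and genes with Gm, Rik or pseudogene names were left out.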

Additional observations from a re-analysis of the deposited data

How the results depend on the processing

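All 9 genes called higher kept direction and call under each of the 19 alternatives, with the highest adjusted p at 0.0388 for Cxcl3 without both D libraries. Their log2 fold changes ranged from 2.42 for Fpr2 without Opn5-null A to 5.64 for Cxcl2 without wild-type B. Leaving out each library in turn, 9 to 10 of the 10 genes were higher and 0 were lower, the tenth being Ltb4r1 without Opn5-null D. Over all genes, those fits called 2225 to 3365 higher and 1078 to 2540 lower. The lowest counts of lower genes were 1078, 1242 and 1288 without wild-type A, C and D. Lower genes numbered 3746 under quantile normalization and 3671 under upper-quartile scaling, against 2175, and at the 0.01 threshold 1818 were higher and 702 lower. On recovered reads, edgeR called 3004 genes higher and 2045 lower, and DESeq2 called 3516 and 2716. With the replicate block, 2545 genes were higher and 1691 lower, and 9 of the 10 genes described here rose. Deviations of same-lettered libraries correlated at -0.23, -0.18, 0.23 and 0.21. Libraries of different letters were not compared in this way, so whether the letters pair the samples was not tested. With 4 libraries per genotype, the interval of Ltb4r1 spans -0.01 to 0.95 on the log2 scale. The number of lower genes over the whole table depends on the scaling, and it fell when any 1 wild-type library was left out.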

Other observations

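Ppbp, usually taken as a platelet gene, was abundant beside other platelet transcripts. In wild-type corneas it measured 12427 ± 3525 normalized counts, against 62.6 ± 9.21 for Pf4, 61.5 ± 12.7 for Itga2b and 41.6 ± 2.59 for Gp1bb (SD, n = 4). Of 6 erythroid and platelet markers tested, Pf4 was higher, and Gp1bb and Alas2 were lower in Opn5-null corneas, with log2 fold changes of -2.08 and -1.29. Among all genes tested, 18.8% were higher and 13.5% lower.

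Among neutrophil markers, named here after their values were seen, Padi4, which encodes the enzyme that citrullinates histones in neutrophils, was the single member that fell, from 941 ± 224 to 469 ± 217 normalized counts (SD, n = 4, limma adjusted p = 0.0364). Hdc, the histidine decarboxylase gene, rose 33.4-fold, and Csf3r, the receptor for granulocyte colony-stimulating factor, rose 4.29-fold.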
